A study of Mus musculus with 6 samples.

Results

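The 10 genes described here are the inhibitors of cyclin-dependent kinases (CDKs) of the CIP/KIP and INK4 families and the core of the p53 loop: Cdkn1a, Cdkn1b, Cdkn1c, Cdkn2a, Cdkn2b, Cdkn2c, Cdkn2d, Trp53, Mdm2 and Ccng1. They were chosen by gene symbol, not by their measured values, and all 10 had a row among the 43346 rows of the table. RNA sequencing was done on MC3T3-E1 cells, an established mouse cell line of the osteoblast lineage. A line labelled as a CRISPR knockout of Rorβ, an orphan nuclear receptor, was compared with a control MC3T3 line, with 3 replicates each. Both lines were grown to confluence and then kept for 2 days in osteoblastic differentiation medium. The labels do not say whether the line labelled Rorβ-CRISPR was 1 clone, where the guide cut, nor whether the replicates came from separate cultures; the spread behind each p-value, between libraries, may be technical.

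CDK inhibitors bind cyclin-CDK complexes and hold cells before DNA replication. CIP/KIP proteins (p21 from Cdkn1a, p27 from Cdkn1b, p57 from Cdkn1c) act on several cyclin-CDK complexes, whereas INK4 proteins (p16 from Cdkn2a, p15 from Cdkn2b, p18 from Cdkn2c, p19 from Cdkn2d) bind Cdk4 and Cdk6. The transcription factor p53, from Trp53, induces Cdkn1a, Mdm2 and Ccng1; Mdm2 is the ubiquitin ligase that degrades p53, and cyclin G1, from Ccng1, recruits a phosphatase that activates Mdm2. In osteoblasts, p21 and p27 are known for cell cycle exit during differentiation.

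Values are read counts relative to library size after the authors' trimmed-mean (TMM) scaling (TMM-scaled CPM), from libraries of 34662707 to 42255967 reads in genes under the Rorβ-CRISPR label and 40772380 to 42603315 in the control line. Rorb itself had 69, 78 and 111 reads in the libraries labelled Rorβ-CRISPR and 1, 3 and 0 reads in the control libraries, and in the authors' deposited table its fold is 54.0 and its q-value 1.75e-39. Transcript of the targeted gene was thus higher, not lower, under the knockout label. Whether the labels of the lines were exchanged was not tested, and an exchange would turn round every direction given here. Every direction below is that of the libraries labelled Rorβ-CRISPR against control libraries. The rows Yam1, AY036118 and Lars2 are called the 3 ribosomal RNA rows here. That their reads come from ribosomal RNA was assumed and not tested. Together these rows took 13.1 to 15.2% of reads under the Rorβ-CRISPR label and 16.9 to 25.4% in controls. Osteoblast markers were detected in both lines: of 12 tested, 5 rose, 6 fell and 1 was not called. Among all 13498 tested genes, 32.9% rose and 33.3% fell. Their summed level was 42757 to 44101 in libraries labelled Rorβ-CRISPR and 72152 to 74620 in controls, most of it from the collagen genes Col1a1 and Col1a2, which fell. Among those that rose were the osteoblast transcription factor genes Runx2 and Sp7, the phosphatase gene Alpl, and Ibsp, a bone matrix protein gene that averaged 491 ± 26.7 under the Rorβ-CRISPR label and 128 ± 3.82 in controls. Besides the collagen genes, Sparc, Spp1, Bglap and Bglap2 fell, with log2 fold changes of -0.64, -0.84, -1.11 and -1.39. Runx2, Sp7, Alpl, Col1a1, Bglap and Bglap2 were named after their values were seen.

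The p53 consensus element is shown for the pair of genes in this group with a match in a listed promoter, because their transcripts differed in opposite directions. In RefSeq (GRCm38.p6), 9 of the 10 genes had a promoter entry, 250 bases before to 50 after a transcript start. Entries were searched for the p53 element, an adjacent pair of 10-base units, on both strands with at most 1 mismatch over 20 bases. Each sequence is written 5′ to 3′ on the gene's strand, with the element in capitals.
Cdkn1a, upstream start, chr17:29090729-29091028, plus strand: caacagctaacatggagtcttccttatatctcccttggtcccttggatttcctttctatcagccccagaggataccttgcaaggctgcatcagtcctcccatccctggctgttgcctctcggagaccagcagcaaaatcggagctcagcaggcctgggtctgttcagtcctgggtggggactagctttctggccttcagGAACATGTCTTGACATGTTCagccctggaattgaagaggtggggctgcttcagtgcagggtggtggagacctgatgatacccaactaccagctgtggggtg
Ccng1, chr11:40755237-40755536, minus strand: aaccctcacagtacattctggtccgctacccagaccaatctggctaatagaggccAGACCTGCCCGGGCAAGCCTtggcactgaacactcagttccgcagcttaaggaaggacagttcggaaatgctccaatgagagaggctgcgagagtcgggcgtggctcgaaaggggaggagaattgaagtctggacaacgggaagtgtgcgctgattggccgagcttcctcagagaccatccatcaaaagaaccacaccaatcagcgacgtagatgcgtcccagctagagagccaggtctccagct
The element began at position -51 from the upstream Cdkn1a start and at position -195 from the Ccng1 start. Counting only the first listed promoter of each gene, a match was found in 25 of 27025 mouse promoters, or 0.0925%. The other Cdkn1a entry, with a start further downstream, held no match. No match was found in these windows for the 7 other genes with an entry. A match is a description of letters, not a measured binding site. Calls used limma-trend at an adjusted p of 0.05, for genes whose value reached 1 in 3 or more libraries. Of the 25 genes, 13 were in the table and 4 were tested by limma-trend. Ccng1 and Mthfd1 were higher in the libraries labelled Rorβ-CRISPR, Cdkn1a was lower and Calhm2 was not called. Among all 13498 tested genes, 32.9% rose and 33.3% fell. The element was searched after the values of Cdkn1a and Ccng1 were seen. Mthfd1, a folate enzyme, averaged 73.0 ± 0.305 under the Rorβ-CRISPR label and 55.2 ± 0.588 in controls (SD, n = 3 each; log2 fold change 0.40, limma-trend adjusted p 3.33e-13). Calhm2, a calcium homeostasis modulator, averaged 55.2 ± 1.78 and 53.8 ± 0.827 for Rorβ-CRISPR and control (log2 fold change 0.035, SE 0.041). Of other short motifs, AGGTCA, the core recognised by ROR receptors, was found on either strand in 1 entry each of Cdkn2a and Cdkn2c. Among the first listed promoters of all genes, 16.0% held it. The E-box CACGTG was found in 1 entry of Cdkn2c and in Trp53, and in 7.24% of first listed promoters. The AGGTCA matches and the Cdkn2c E-box lay outside the first listed entries, which alone enter these shares. No first listed entry of the 9 genes held AGGTCA.

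Of the 10 genes, 7 passed the filter on low values; 3 of them rose and 3 fell in the libraries labelled Rorβ-CRISPR, and 1 was not called. Among all 13498 genes tested, 32.9% rose and 33.3% fell (66.2% called in either direction), so these counts lie near the share in the whole table. The members' median log2 fold change was -0.091, beside 0.0025 for all tested genes. For 6 of the 7 genes the groups did not overlap, as was the case for 68.4% of all tested genes (33.9% with every library labelled Rorβ-CRISPR above the controls, 34.5% below). All 3 that fell were CDK inhibitors, and the 3 that rose were Trp53, Mdm2 and Ccng1. On the chromosomes that hold the 10 genes, median log2 fold changes of all tested genes lay between -0.045 and -0.0056. In bulk RNA, fewer cells expressing a gene and less of its RNA per cell cannot be told apart. Log2 fold changes below are on the log2(value + 1) scale.

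**Figure D1:**
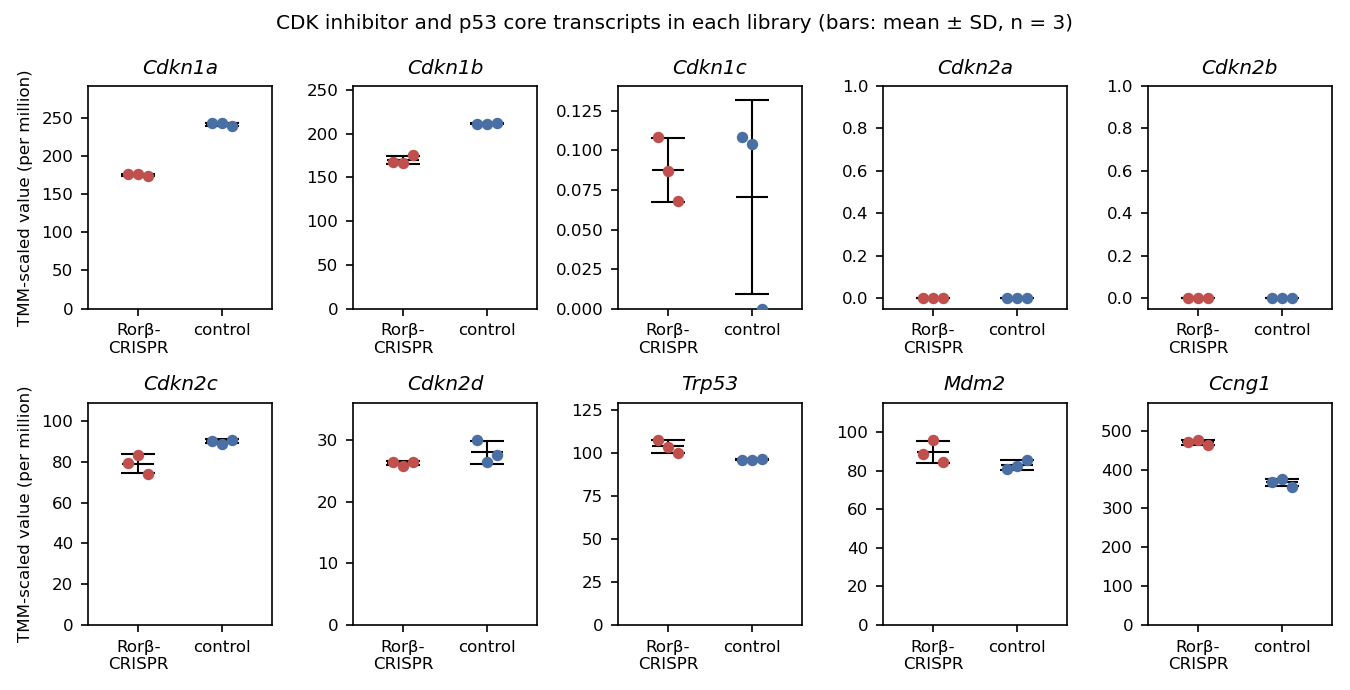
TMM-scaled values of the 10 genes (vertical axes, TMM-scaled CPM, from 0) in each library, with bars for mean ± SD of 3 libraries; red, libraries labelled Rorβ-CRISPR; blue, control libraries. Cdkn1a and Cdkn1b lie wholly below the control libraries and Ccng1 wholly above, Mdm2 overlaps, and Cdkn2a and Cdkn2b are at 0 in every library.

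Cdkn1a encodes p21, the inhibitor through which p53 halts the cycle. Its values were 176, 176 and 174 in libraries labelled Rorβ-CRISPR, against 244, 243 and 240.0 in control libraries. All libraries labelled Rorβ-CRISPR lay below all controls, with a gap many times the spread within either line. The means were 175 ± 1.58 and 242 ± 2.06 (SD, n = 3 each) for Rorβ-CRISPR and control, a change of -27.6%. Its log2 fold change was -0.46 (SE 0.03, 95% interval -0.52 to -0.41, limma-trend adjusted p 4.12e-21), and 11.6% of tested genes had a lower one. In the authors' deposited table the fold is 0.724 and the q-value 1.55e-19. In size the change was not exceptional, since 31.6% of all called genes changed by more. A neighbouring transcript annotated on the opposite strand, AC167363.2, shares 273 exonic bases with Cdkn1a, and without a stated strand its reads cannot be told apart. Trp53cor1, a long noncoding RNA made next to Cdkn1a and induced by p53, averaged 1.07 ± 0.325 under the Rorβ-CRISPR label and 1.05 ± 0.160 in controls; it was named after its values were seen.

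Cdkn1b encodes p27, which holds cyclin E-Cdk2 inactive in resting cells. Its values were 168, 167 and 176 in libraries labelled Rorβ-CRISPR, against 212, 211 and 212 in control libraries. The lines did not overlap, and the spread was wider under the Rorβ-CRISPR label. Means were 170.2 ± 4.70 and 212 ± 0.746 (SD, n = 3 each) for Rorβ-CRISPR and control, a change of -19.5%, with a log2 fold change of -0.31 (SE 0.03, 95% interval -0.37 to -0.26, limma-trend adjusted p 4.42e-14). Scaled by library size alone, which moved the median of all tested genes up by 0.21, its log2 fold change was -0.087 and the call was lost (limma-trend adjusted p 0.212).

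Cdkn1c, the imprinted gene of p57, was near the limit of detection. It had 4, 4 and 3 reads in libraries labelled Rorβ-CRISPR and 4, 4 and 0 in control libraries. The sums of 11 reads (exact 95% Poisson interval 5.49 to 19.7, counting error only) and 8 reads (3.45 to 15.8) for Rorβ-CRISPR and control overlap widely, so no difference was detectable at this depth. Its row did not pass the filter on low values. In a list of its imprinted domain and the adjacent one, 6 of 11 genes were tested: 1 rose, 4 fell and 1 was not called. Their median log2 fold change was -0.28. Of all tested genes, 32.9% rose and 33.3% fell. The balance in the list rests on the scaling, since library size alone gave 2 higher, 1 lower and a median of -0.057. Kcnq1ot1, the antisense RNA that silences Cdkn1c on the paternal chromosome, averaged 9.88 ± 0.510 under the Rorβ-CRISPR label and 7.63 ± 0.838 in controls (log2 fold change 0.34). Igf2, the growth factor gene of the adjacent domain, averaged 2.32 ± 0.482 and 10.6 ± 0.114 for Rorβ-CRISPR and control (log2 fold change -1.82). H19, also of the adjacent domain and named after its values were seen, did not pass the filter. It had 29, 40 and 38 reads under the Rorβ-CRISPR label and 10, 0 and 2 in controls. Cars, a tRNA synthetase, and Osbpl5, a lipid carrier, fell by 0.30 and 0.26 on the log2 scale, but not when scaled by library size alone (-0.08 and -0.03, neither called). Phlda2, which limits placental growth, had 0 reads throughout.

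Cdkn2a and Cdkn2b had no read in any of the 6 libraries. A count of 0 allows up to 3 reads in a library, which is a value of 0.0651 to 0.0812 (counting error only). The row for Cdkn2a would hold both p16 and p19Arf, the Mdm2 inhibitor read from the same locus, so neither was detected. No direction can be given for these genes.

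Their neighbours were examined after these zeros were seen. In RefSeq order on chromosome 4, the 8 protein-coding genes from Mtap, a methionine salvage enzyme, through Cdkn2a, Cdkn2b, Dmrta1, Zfp352, Elavl2 and Izumo3 to Tusc1 had 0 reads in all 6 libraries. Of all rows, 41.5% were at 0 throughout, so single zeros are common. From Mtap to Cdkn2b all 6 rows of any type were at 0. The long noncoding RNA Gm12602, next to Mtap, had 332, 427 and 415 reads in libraries labelled Rorβ-CRISPR and 447, 529 and 544 in control libraries. On the far side, Caap1, an apoptosis regulator, had 1006 reads summed over libraries labelled Rorβ-CRISPR and 983 over controls, and Plaa, a ubiquitin-binding protein, had 7723 and 5775 for the same labels. Of 31 rows of any type from Mtap to Tusc1, 22 were at 0. The other 9 were pseudogenes, chiefly Gm12669 with 419, 472 and 497 reads under the Rorβ-CRISPR label and 374, 366 and 368 reads in controls. Both lines shared the run of zeros, and its cause was not tested. Of the listed neighbours, Klhl9, a ubiquitin ligase adaptor, averaged 121 ± 0.799 under the Rorβ-CRISPR label and 130 ± 2.48 in controls (log2 fold change -0.10, but 0.13 and not called with library size alone). Focad, a focal adhesion protein gene, averaged 44.3 ± 1.93 and 40.9 ± 0.314 for Rorβ-CRISPR and control (log2 fold change 0.11).

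**Figure D2:**
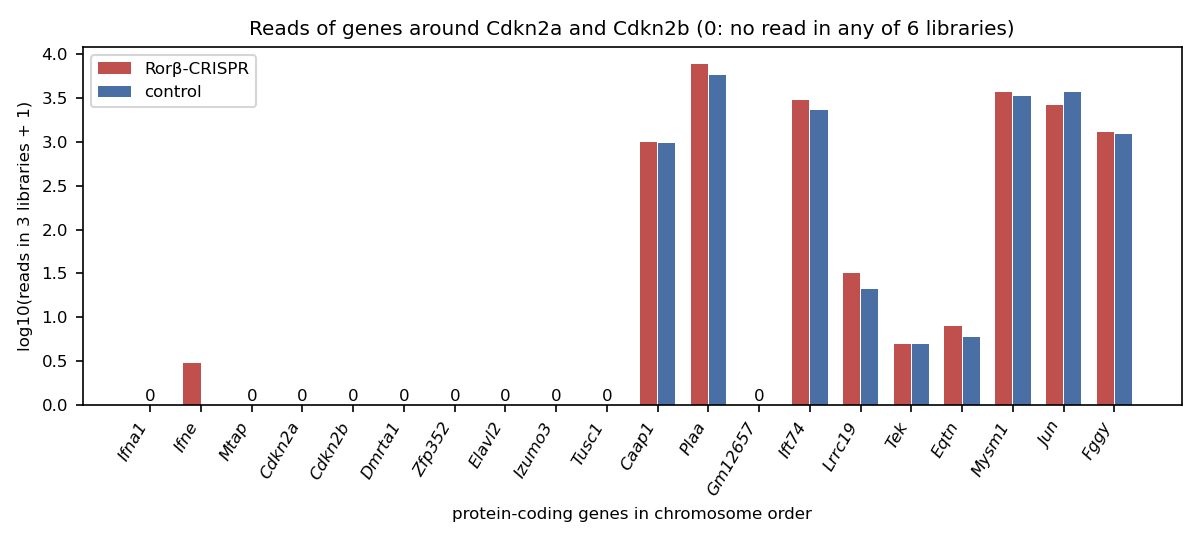
Reads summed over 3 libraries per line, as log10(reads + 1), for protein-coding genes in chromosome order around Cdkn2a and Cdkn2b; red, libraries labelled Rorβ-CRISPR; blue, control. The 8 genes from Mtap to Tusc1 are marked 0, while Caap1 had 1006 and 983 reads for Rorβ-CRISPR and control.

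Cdkn2c encodes p18, the better expressed of the 2 INK4 genes that were detected. Its values were 79.4, 83.4 and 74.1 in libraries labelled Rorβ-CRISPR, against 90.2, 88.9 and 90.9 in control libraries. The groups did not overlap, and the libraries labelled Rorβ-CRISPR were again the more variable. The means of 79.0 ± 4.64 and 90.0 ± 0.983 (SD, n = 3 each) for Rorβ-CRISPR and control differ by -12.3%, with a log2 fold change of -0.19 (SE 0.04, 95% interval -0.26 to -0.11, limma-trend adjusted p 1.74e-05). This direction rests on the scaling: with library size alone the log2 fold change was 0.035 (limma-trend adjusted p 0.642), and with library size after removal of 3 ribosomal RNA rows it was -0.069 (adjusted p 0.0863).

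Cdkn2d encodes p19INK4d. It had 26.4, 25.8 and 26.4 in libraries labelled Rorβ-CRISPR, against 30.1, 26.4 and 27.6 in control libraries. The highest library labelled Rorβ-CRISPR and the lowest control library were equal to 3 digits. The log2 fold change of -0.091 was not called (SE 0.05, 95% interval -0.20 to 0.02, limma-trend adjusted p 0.134), so a change of up to 0.20 downwards lies inside the interval. Its sign rests on the scaling: the log2 fold change was 0.13 with library size alone and 0.025 with library size after removal of ribosomal RNA rows, neither called. Without control replicate 1 it was -0.041.

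Trp53 transcript was slightly more abundant in the libraries labelled Rorβ-CRISPR. Values were 108, 103 and 100.1, against 95.9, 95.7 and 96.3 in control libraries. No library overlapped, although the lowest value under the Rorβ-CRISPR label was close to the controls. Means of 103.8 ± 3.84 and 96.0 ± 0.345 (SD, n = 3 each) for Rorβ-CRISPR and control gave a log2 fold change of 0.11 (SE 0.03, 95% interval 0.04 to 0.18, limma-trend adjusted p 0.00343). The call was lost without Rorβ-CRISPR replicate 1 (0.083, limma-trend adjusted p 0.0510), and the q-value in the authors' deposited table is 0.0613. The change was small beside the rest of the transcriptome, since 95.8% of called genes changed by more. The transcript level says nothing of p53 protein, which is set mainly by its breakdown.

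Mdm2 had 88.7, 96.1 and 84.6 in libraries labelled Rorβ-CRISPR, against 80.7, 82.5 and 85.7 in control libraries. The groups overlapped, since 1 library labelled Rorβ-CRISPR fell below the highest control. Means were 89.8 ± 5.82 and 83.0 ± 2.53 (SD, n = 3 each) for Rorβ-CRISPR and control, with a log2 fold change of 0.11 (SE 0.04, 95% interval 0.03 to 0.19, limma-trend adjusted p 0.00963). This call rested on single libraries: it was lost without Rorβ-CRISPR replicate 2 (0.062, limma-trend adjusted p 0.166) and without control replicate 1 (0.092, adjusted p 0.0592). The authors' deposited table gives a q-value of 0.157.

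Ccng1, a p53-induced cyclin with no known CDK partner, rose most of the 7. It had 470.5, 477 and 464 in libraries labelled Rorβ-CRISPR, against 369, 375 and 356 in control libraries. The lowest library labelled Rorβ-CRISPR lay far above the highest control. Means were 471 ± 6.47 and 367 ± 9.69 (SD, n = 3 each) for Rorβ-CRISPR and control, a change of 28.3%, with a log2 fold change of 0.36 (SE 0.02, 95% interval 0.31 to 0.41, limma-trend adjusted p 1.46e-18). Of all tested genes, 85.8% had a lower fold change. For Ccng1 the authors' deposited table holds a fold of 1.28 and a q-value of 7.55e-07.

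**Figure D3:**
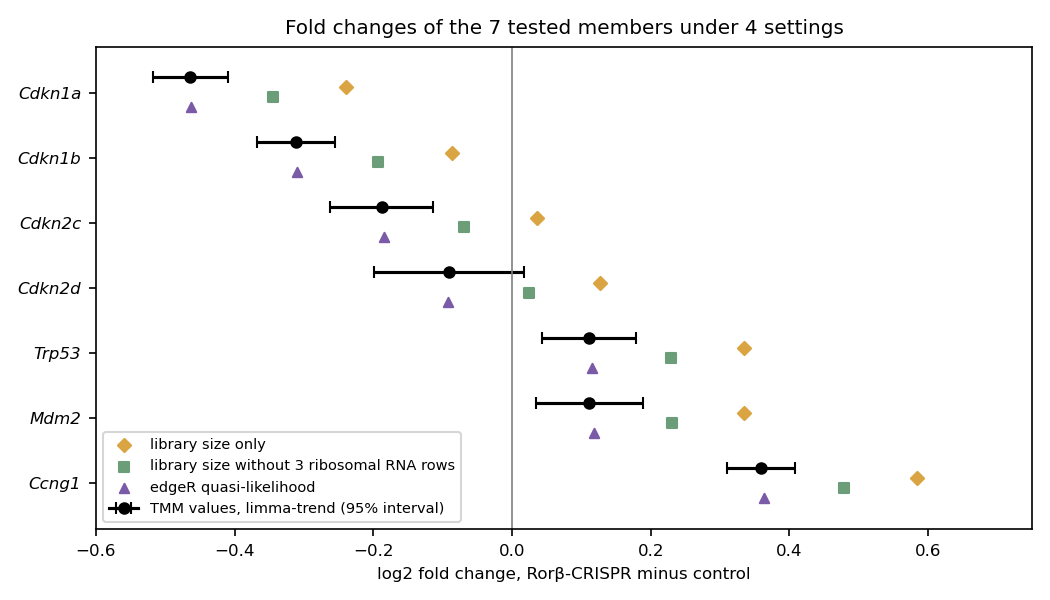
Log2 fold changes, Rorβ-CRISPR minus control, of the 7 tested genes under 4 settings: limma-trend on TMM values with 95% intervals, edgeR's quasi-likelihood test, and library size with and without ribosomal RNA rows. The order of the genes is the same throughout except that Trp53 and Mdm2 lie together, while library size alone moves all points to the right, Cdkn2c to 0.035 and Cdkn1b to -0.087.

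Because all values shift together with the scaling, ratios of reads between members within a library were also taken, as these do not depend on it. These 9 ratios were chosen after the values were seen. Cdkn1a over Ccng1 was 0.375, 0.370 and 0.374 in libraries labelled Rorβ-CRISPR, against 0.661, 0.648 and 0.673 in control libraries. These are ratios of reads, not of molecules, and the groups lay far apart (log2 difference -0.83, SE 0.02). Cdkn1a over Trp53 was 1.64, 1.71 and 1.73 under the Rorβ-CRISPR label, against 2.54, 2.54 and 2.49 in controls (log2 difference -0.58, SE 0.03). Ccng1 over Trp53 was 4.37, 4.62 and 4.64 under the Rorβ-CRISPR label, against 3.85, 3.93 and 3.70 in controls (log2 difference 0.25, SE 0.04). Cdkn1a and Ccng1, both induced by p53, thus moved apart from each other and to opposite sides of Trp53 itself. Cdkn1a over Cdkn1b was lower by a smaller step, 1.03 ± 0.0372 under the Rorβ-CRISPR label and 1.15 ± 0.0130 in controls. In an exact 2-sided permutation test each of these 4 ratios, and those of Cdkn1a and Ccng1 to Mdm2, reached p = 0.1, the smallest p that 3 against 3 libraries allow, or 0.15 adjusted over the 9. For Cdkn1a over Ccng1 and over Trp53 this outcome was fixed in advance. Cdkn1a lay wholly below the controls and the other gene wholly above, so these p-values add nothing. How often ratios of other gene pairs separate the lines was not examined.

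The remaining ratios overlapped between the lines. Mdm2 over Trp53 was 0.823, 0.929 and 0.845 in libraries labelled Rorβ-CRISPR, against 0.841, 0.862 and 0.890 in control libraries. The lines shared their range (log2 difference 0.00089, SE 0.058, exact permutation p = 1), which does not show that the ratios are equal. Cdkn2c over Cdkn2d and Cdkn1b over Cdkn2c had log2 differences of -0.10 and -0.12, each with an exact permutation p of 0.3.

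**Figure D4:**
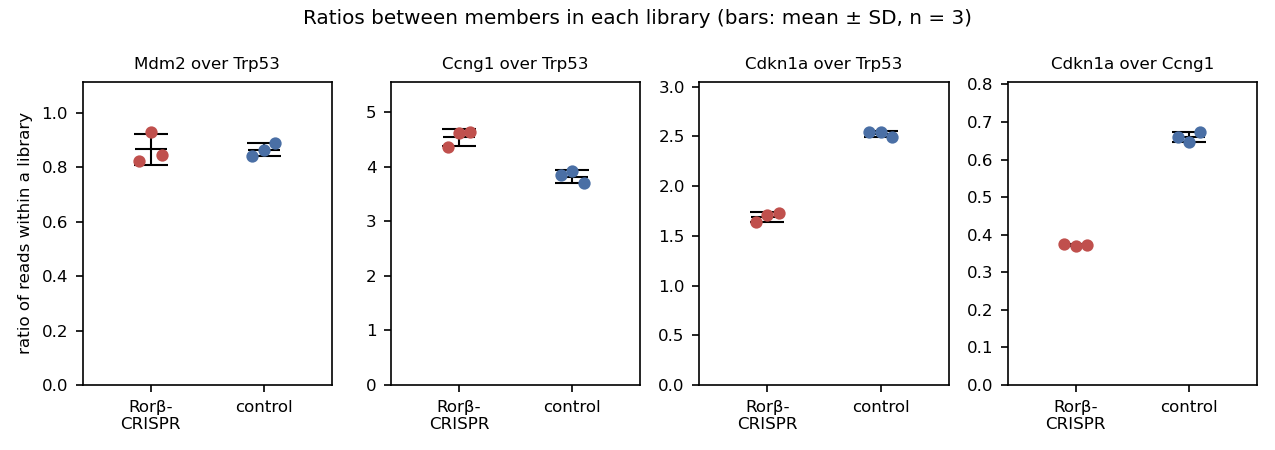
Ratios of reads of 2 genes within each library (vertical axes, from 0), with bars for mean ± SD of 3 libraries; red, libraries labelled Rorβ-CRISPR; blue, control. Mdm2 over Trp53 overlaps, whereas Cdkn1a over Ccng1 is 0.373 ± 0.00266 under the Rorβ-CRISPR label and 0.661 ± 0.0127 in controls.

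Per kilobase of annotated exon (GENCODE vM21, a later annotation than the mm9 alignment), the order of levels was nearly the same in both lines. Ccng1 was highest, at 134 ± 1.84 per kilobase under the Rorβ-CRISPR label and 104.5 ± 2.76 in controls. Cdkn1a followed at 49.4 ± 0.443 and 68.2 ± 0.579 for Rorβ-CRISPR and control. Cdkn1b was next, at 37.4 ± 1.03 and 46.5 ± 0.164 for Rorβ-CRISPR and control, before Cdkn2c at 29.4 ± 1.73 and 33.5 ± 0.366 and Trp53 at 25.7 ± 0.948 and 23.7 ± 0.0853. Each of these levels lay apart from its neighbours in the order by more than the SDs. Mdm2 at 17.7 ± 1.14 and Cdkn2d at 16.7 ± 0.203 in libraries labelled Rorβ-CRISPR did not differ beyond their spread, nor did they in controls, where they were 16.3 ± 0.499 and 17.8 ± 1.19. Of tested genes, the profile over the 6 libraries most like that of Cdkn1a belonged to Eln, Slc4a7 and Nynrin, each with a Pearson r of 1.00 on log2 values. For Ccng1 these were B630019K06Rik, Atic and Srsf2, likewise 1.00. With 2 well-separated lines such values are common: 945 and 417 genes had an r above 0.99 with Cdkn1a and Ccng1.

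The partners of the CDK inhibitors, and the regulators and targets of p53, were then read from gene lists. Their counts are to be read against all tested genes, of which 32.9% rose and 33.3% fell with TMM scaling, and 54.0% rose and 14.6% fell with library size alone. Among 14 tested cyclins and CDKs, 5 rose, 3 fell and 6 were not called (median log2 fold change 0.04); with library size alone 10 rose and 1 fell (median 0.27). Ccnd2, a cyclin D that p18 and p19INK4d oppose through its kinase, averaged 679 ± 12.3 under the Rorβ-CRISPR label and 932 ± 16.0 in controls (log2 fold change -0.46, limma-trend adjusted p 1.00e-24). Ccnd1, its paralogue, averaged 337 ± 2.39 and 392 ± 12.8 for Rorβ-CRISPR and control, with a log2 fold change of -0.22, or 0.01 and not called with library size alone. Cdk6, a target of the INK4 proteins, averaged 49.4 ± 1.10 under the Rorβ-CRISPR label and 40.7 ± 0.827 in controls (log2 fold change 0.27). Ccnh, part of the CDK-activating kinase, averaged 36.8 ± 0.885 and 26.3 ± 1.78 (log2 fold change 0.47) for Rorβ-CRISPR and control. Cdk6 lies on chromosome 5 (median log2 fold change 0.21) and Ccnh on chromosome 13 (median 0.20). The part of these medians in the results was not tested.

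Of 13 genes of the RB and E2F families, through which CDKs control entry into S phase, 8 rose, 3 fell and 2 were not called (median 0.21), or 9 and 1 with library size alone (median 0.42). Rb1, the retinoblastoma protein gene, averaged 15.9 ± 0.494 under the Rorβ-CRISPR label and 23.5 ± 0.814 in controls (log2 fold change -0.53, limma-trend adjusted p 5.82e-11). Rb1 lies on chromosome 14, where the median log2 fold change of all tested genes was also -0.53, and the part of this in the result was not tested. The activating factor E2f1, the repressive E2f4 and their partner Tfdp1 rose by 0.30, 0.40 and 0.29 on the log2 scale. Proliferation markers, which are E2F or mitotic targets in large part, counted 11 higher, 2 lower and 6 not called of 19 (median 0.10), or 17 higher and 0 lower with library size alone (median 0.33). The replication genes Mcm3, Mcm6, Mcm7 and Tyms rose by 0.36, 0.68, 0.35 and 0.54. Mcm3 and Mcm6 lie on chromosome 1 (median 0.12), and Mcm7 and Tyms on chromosome 5 (median 0.21). Mki67, a general marker of cycling cells named after its values were seen, averaged 192 ± 7.08 under the Rorβ-CRISPR label and 191 ± 10.9 in controls. It was not called, nor were Top2a, Plk1, Aurkb, Bub1 and Foxm1. Those that fell were Cdc20 and Aurka, with log2 fold changes of -0.17 and -0.19. These genes too were named after their values were seen.

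Ubiquitin ligases and cofactors that degrade CDK inhibitors counted 4 of 14 higher, 4 lower and 6 not called (median -0.0069), near the shares of all tested genes. With library size alone, 8 rose and 0 fell (median 0.21). The SCF scaffold genes Skp1a and Cul1 had log2 fold changes of 0.28 and -0.26; Cul1 was not called with library size alone (-0.03). Cul4b, a scaffold of the ligase that degrades p21 in S phase, averaged 71.0 ± 2.18 under the Rorβ-CRISPR label and 40.1 ± 1.41 in controls (log2 fold change 0.81); it lies on the X chromosome, whose median was 0.65, and the part of this in the result was not tested. Fbxl12, a substrate receptor, averaged 11.5 ± 0.634 and 15.3 ± 0.516 for Rorβ-CRISPR and control (log2 fold change -0.38, or -0.17 and not called with library size alone).

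Among 17 upstream regulators of CIP/KIP transcription, 5 rose, 6 fell and 6 were not called (median 0.025), or 10 and 1 with library size alone (median 0.25). Myc, a repressor of Cdkn1a and Cdkn2b transcription, averaged 191 ± 3.96 under the Rorβ-CRISPR label and 67.6 ± 0.847 in controls. The log2 fold change of 1.48 was the largest in this list (limma-trend adjusted p 1.46e-39), while the median on its chromosome 15 was -0.26. Hes1, a Notch effector that represses Cdkn1b, averaged 2.17 ± 0.425 and 4.79 ± 0.729 for Rorβ-CRISPR and control (log2 fold change -0.87). Foxo4, an activator of Cdkn1b on the X chromosome (median 0.65), rose by 0.54, and Akt1, the kinase that inactivates FOXO factors, rose by 0.28.

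Regulators of the INK4-ARF locus counted 7 higher, 4 lower and 6 not called of 17 (median 0.090). Library size alone gave 11 higher and 2 lower (median 0.31), and centring on chromosome medians gave 7 and 5 (median -0.024). The repressors Bmi1 and Kdm2b averaged 91.5 ± 1.41 and 53.9 ± 1.72 under the Rorβ-CRISPR label, and 76.3 ± 3.22 and 38.3 ± 2.45 in controls. Kdm2b lies on chromosome 5, whose median log2 fold change was 0.21. Ets1, an activator of Cdkn2a, averaged 14.3 ± 0.933 under the Rorβ-CRISPR label and 34.9 ± 1.23 in controls (log2 fold change -1.23), and Kdm6b, a demethylase that opens the locus, fell by 0.37. Cdkn2a and Cdkn2b, the genes of the INK4-ARF locus, were at 0 reads in both lines.

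Of 20 tested regulators and cofactors of p53, 14 rose, 2 fell and 4 were not called (median log2 fold change 0.30, or 0.18 after centring on chromosome medians). With library size alone 17 rose and 0 fell (median 0.52). Rpl5 and Rpl11, ribosomal proteins that bind and inhibit Mdm2, averaged 154 ± 4.38 and 121 ± 6.16 under the Rorβ-CRISPR label, and 84.5 ± 1.68 and 84.9 ± 2.02 in controls. Rpl5 lies on chromosome 5, whose median log2 fold change was 0.21. Npm1, a nucleolar protein that binds Mdm2 and p19Arf, averaged 655 ± 3.76 and 418 ± 4.22 for Rorβ-CRISPR and control (log2 fold change 0.65). Trp63, a p53 family member, averaged 36.0 ± 1.63 under the Rorβ-CRISPR label and 22.0 ± 1.70 in controls (log2 fold change 0.69), whereas Trp73 had at most 2 reads in any library.

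Of 27 tested p53 targets outside the 10 genes, 8 rose, 10 fell and 9 were not called (median -0.062), near the shares of all tested genes. With library size alone 14 rose and 5 fell (median 0.16). Gadd45a, a growth arrest and stress response gene, averaged 1.79 ± 0.336 under the Rorβ-CRISPR label and 9.05 ± 0.594 in controls (log2 fold change -1.86, limma-trend adjusted p 6.18e-22). Sesn1, a sestrin that restrains mTORC1, averaged 87.9 ± 5.35 and 147 ± 3.47 for Rorβ-CRISPR and control (log2 fold change -0.74). Tnfrsf10b, a death receptor on chromosome 14, averaged 18.1 ± 1.67 under the Rorβ-CRISPR label and 33.6 ± 0.957 in controls (log2 fold change -0.86, chromosome median -0.53). Eda2r, an ectodysplasin receptor on the X chromosome, averaged 48.0 ± 2.64 and 25.1 ± 0.768 for Rorβ-CRISPR and control (log2 fold change 0.91, chromosome median 0.65). The cell death genes Bax and Bbc3, named after their values were seen, rose by 0.12 and 0.31, while Pmaip1 and Perp had 0 reads in all libraries.

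**Figure D5:**
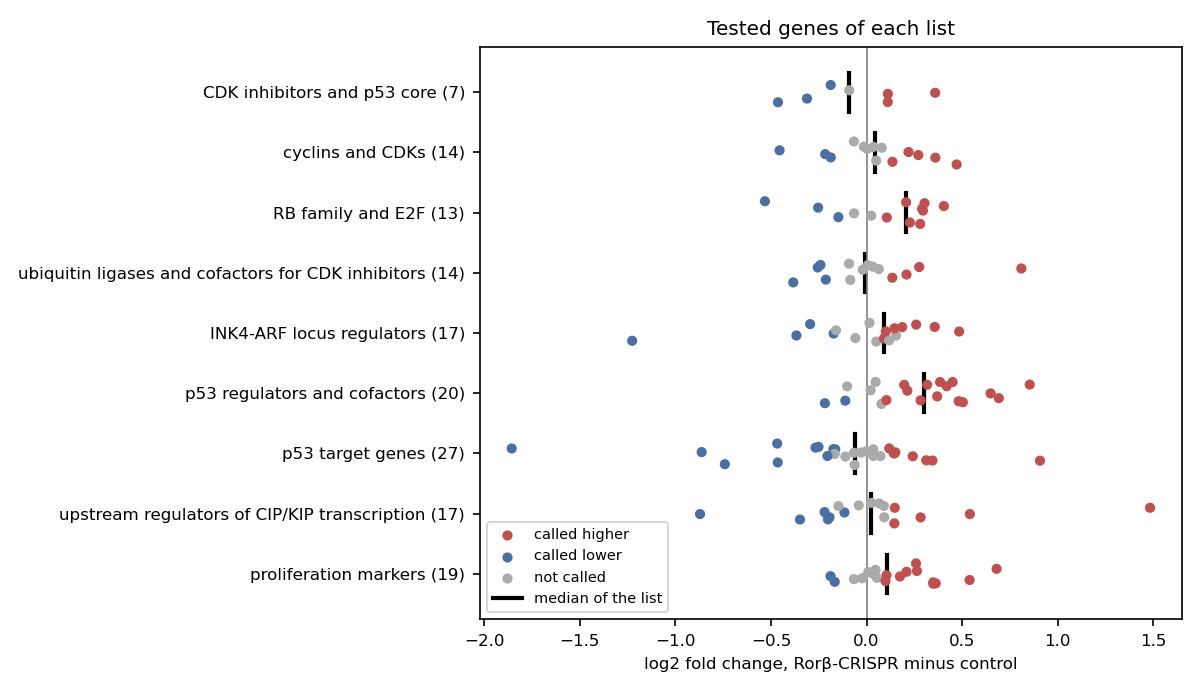
Log2 fold changes, Rorβ-CRISPR minus control, of the tested genes of the 10 described here and of 8 gene lists (number tested in brackets); red, called higher; blue, called lower; grey, not called; black bars, medians. The p53 regulators have the highest median (0.30), and the p53 targets spread from -1.86 to 0.91.

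Markers of other cell types were at or near 0 for endothelium and at measurable levels for chondrocytes and neurons. Endothelial markers summed to 0.162 to 0.499 in libraries labelled Rorβ-CRISPR and 0.173 to 0.514 in controls, with Cdh5, Kdr and Emcn at 0, and none of 6 was tested. Macrophage and blood markers summed to 16.8 to 18.2 under the Rorβ-CRISPR label and 23.2 to 26.6 in controls, with Emr1 at 0, and 1 of 3 tested fell. Skeletal muscle markers summed to 3.30 to 3.67 and 8.49 to 9.71 for Rorβ-CRISPR and control, with Myod1 and Myog at 0, and 2 of 2 tested fell, of which Acta1 was not called with library size alone (-0.13). Adipocyte markers summed to 9.46 to 9.71 under the Rorβ-CRISPR label and 7.66 to 10.1 in controls, with Plin1 and Cidec at 0 and 0 of 1 called. Chondrocyte markers summed to 225 to 239 and 323 to 345 for Rorβ-CRISPR and control, with Acan at 0; 1 rose and 2 fell of 3, and Sox9 turned to 0.018 and was not called with library size alone. Most of this sum was Col2a1, a cartilage collagen gene that averaged 186 ± 7.89 under the Rorβ-CRISPR label and 283 ± 11.5 in controls. Neuronal and retinal markers summed to 48.6 to 55.0 under the Rorβ-CRISPR label and 44.2 to 50.3 in controls, with Rbfox3 and Snap25 at 0. Tubb3, a tubulin gene, rose to 32.3 ± 3.29 under the Rorβ-CRISPR label, against 6.12 ± 0.677 in controls, and Map2, a microtubule-binding protein gene, averaged 18.8 ± 0.201 and 40.4 ± 3.47 for Rorβ-CRISPR and control. Their part in the results for the 10 genes was not tested.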

How the data were processed

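RNA was sequenced from 3 libraries labelled Rorβ-CRISPR and 3 control libraries of MC3T3-E1 cells. Total RNA was extracted with Trizol and made into libraries with an Encore NGS kit, per the labels' protocols; the strand is not given there. TopHat2 2.0.6, HTSeq and the build mm9 are listed in the submitters' processing notes. The deposited signal per library was TMM-scaled by the authors, per the file headers. Beside it, the authors deposited median counts per group, a fold (ratio), a p-value and a q-value per gene, in a table of 43346 rows, of which 18010 were at 0 in all libraries and 131 shared a symbol with another row.

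Divided by the value of 1 read, 100% of the values came within 0.01 of a whole number, and recovered reads gave the deposited median counts in all 43346 rows. A count test had been foreseen for raw counts. The values per library were scaled, so limma-trend (limma 3.58.1, R 4.3.3, robust) was fitted to log2(value + 1). All rows whose value reached 1 in 3 or more libraries entered the fit. Its p-values were adjusted by Benjamini-Hochberg over all 13498 genes, at a threshold of 0.05. edgeR 4.0.16 and DESeq2 1.42.0 on recovered reads, other scalings, filters and pseudocounts, and leaving out each library were alternatives. Intervals on read sums are exact Poisson and cover counting error only. Ratios were tested by exact permutation (scipy 1.17.1).

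All 10 genes are named, and in each pathway or neighbour list the called genes of smallest adjusted p, up to 4, plus the 3 genes most correlated with each of the 2 members of largest fold change; others are said to be named after their values were seen. The genes and lists were chosen with earlier results of these data known. The motifs, the ratios and the genes around Cdkn2a were added after the values were seen. Promoter sequences and gene order come from RefSeq GRCm38.p6. No coordinates of the mm9 build were used.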

Additional observations from a re-analysis of the deposited data

How the results depend on the processing

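In libraries labelled Rorβ-CRISPR against controls, Cdkn1a fell and Ccng1 rose past the threshold under every alternative except the test against a fold of 1.5, which called 0 of the 10 genes higher and 0 lower and 413 and 645 of all genes. Scaling by library size alone moved the median of all tested genes by 0.21 and left 1 member lower, Cdkn1a at -0.24; Cdkn2c turned to 0.035 and Cdkn1b was no longer called, while Trp53, Mdm2 and Ccng1 rose by 0.33, 0.33 and 0.58. All genes then counted 7291 higher and 1975 lower, against 4441 and 4501 with TMM. Library size without 3 ribosomal RNA rows, added after the data were seen, moved the median by 0.11, gave 6360 higher and 3132 lower, and lost Cdkn2c. An edgeR quasi-likelihood test on recovered reads called 4476 higher and 4449 lower, with 3 members each way.

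Leaving out each library in turn gave 2 to 3 members higher and 3 lower in each case, with 4046 to 4240 of all genes higher and 4095 to 4310 lower. Whether the replicate numbers pair the samples is not known. Deviations of same-numbered libraries correlated at -0.06, 0.17 and 0.13, and those of differently numbered libraries at -0.21 to 0.11. These values do not settle the question. A replicate block called 3 members higher and 3 lower, and 4502 and 4551 of all genes. Depth limits what can be said of Cdkn1c, with at most 4 reads in a library; the cause of the zeros of Cdkn2a and Cdkn2b was not tested.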
